A study of Mus musculus with 21 samples.

Results

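The digestive enzymes of the intestinal brush border were followed through sorted Mist1+ cells of the mouse small intestine. The members were 10 genes picked by name: Lct, Alpi, Sis, Anpep, Enpep, Treh, Dpp4, Mme, Enpp3 and Cubn. Every probe set of the deposited table whose single gene symbol was one of them was used. This gave 18 probe sets for 9 genes, of 34958 probe sets and 18194 genes in all, and Sis was not analysed here. All 9 genes passed the filter on dim probe sets, as did 11854 genes in total, and 17 of their 18 probe sets passed. Cubn is a receptor rather than an enzyme, and it was kept because it was listed with the others.

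The cells carried the red fluorescent protein TdTomato, which the labels tie to Mist1, the basic helix-loop-helix factor encoded by Bhlha15. They were parted by flow sorting on the surface protein CD24 into a low (CD24lo) and a high (CD24hi) fraction. Each fraction was profiled on 2 arrays in each of 5 conditions, which makes 10 groups and 20 arrays. The conditions were no treatment; ablation of Lgr5, with DT in the sample titles; irradiation with 10 Gy; doxorubicin, an agent that damages DNA; and expression of NICD, the name used for the intracellular domain of Notch. One further array held whole intestine, with villi given as its cell type. All of these sorted groups share the Mist1-linked TdTomato label. The labels give no strain, age, sex, drug dose, time after treatment or driver of NICD, and they list no group that received DT without ablation. They do not say whether the replicates came from separate animals, so p-values measure only the spread between these arrays, which may be technical. RNA was amplified from 0.8 ng per sample.

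The brush border is the layer of microvilli on the apical face of absorptive enterocytes. Its membrane holds hydrolases that finish digestion: disaccharidases split sugars, peptidases trim peptides, and phosphatases and phosphodiesterases remove phosphate groups or cleave nucleotides. Enterocytes switch these genes on as they leave the crypt and climb the villus, under transcription factors of the HNF4, HNF1, CDX and GATA families, while secretory cells of the crypt are known for other products. Several of the peptidases are also known from other cells, as Dpp4 is on T cells and Anpep on myeloid cells.

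The stretches just upstream of the start sites of 5 members are printed because these genes carry the findings. Lct and Treh had the most alike profiles of any pair, Alpi shares a motif with Treh, Enpp3 had the smallest adjusted p between the fractions, and Cubn changed most after doxorubicin. Each run holds the 200 bases before the start site in RefSeq's table of promoters for GRCm38.p6, in the direction of the gene, with motif matches in capitals.
Lct: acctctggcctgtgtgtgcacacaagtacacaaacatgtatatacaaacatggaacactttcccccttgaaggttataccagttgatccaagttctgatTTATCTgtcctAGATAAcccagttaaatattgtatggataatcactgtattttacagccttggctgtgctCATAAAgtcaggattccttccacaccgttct
Treh: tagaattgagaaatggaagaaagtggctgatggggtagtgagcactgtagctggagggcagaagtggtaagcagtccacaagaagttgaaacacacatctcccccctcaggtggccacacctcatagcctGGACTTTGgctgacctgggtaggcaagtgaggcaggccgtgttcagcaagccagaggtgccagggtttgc
Alpi: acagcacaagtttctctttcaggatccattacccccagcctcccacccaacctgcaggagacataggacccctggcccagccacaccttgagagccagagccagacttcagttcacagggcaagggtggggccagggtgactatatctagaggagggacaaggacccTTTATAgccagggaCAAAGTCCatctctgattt
Enpp3: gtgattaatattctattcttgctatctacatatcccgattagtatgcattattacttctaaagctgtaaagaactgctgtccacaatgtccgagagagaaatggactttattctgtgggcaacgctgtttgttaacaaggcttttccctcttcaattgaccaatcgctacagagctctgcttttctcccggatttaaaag
Cubn: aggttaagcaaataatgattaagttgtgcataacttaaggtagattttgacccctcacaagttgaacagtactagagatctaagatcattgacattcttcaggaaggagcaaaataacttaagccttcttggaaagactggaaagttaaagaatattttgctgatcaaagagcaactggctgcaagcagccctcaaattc
The Lct run lies at chr1:128328319-128328518 on the minus strand and the Alpi run at chr1:87101607-87101806 on the minus strand. The Treh run lies at chr9:44673033-44673232 on the plus strand, the Enpp3 run at chr10:24836196-24836395 on the minus strand, and the Cubn run at chr2:13491877-13492076 on the minus strand.

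All 10 members had a promoter in that table, with 12 windows between them, and 5 motifs were searched on both strands of the 250 bases before each start site. The motifs were picked with the sequences in view. The letters CAAAGTCC, an HNF4 site, stood in Alpi at -19 to -12 and in Treh at -227 to -220, outside the printed run, and -70 to -63, against 1.2% of 32851 promoters. The GATA letters AGATAA stood in Lct at -101 to -96 and -90 to -85 and in Dpp4, against 9.99% of promoters. The CDX letters TTTATG stood in Lct at -31 to -26 and in Sis, against 10.8%. The HNF1 letters GTTAAT stood in Sis alone among the members, against 6.43%. The letters TATAAA stood in 5 members, Alpi, Enpep, Dpp4, Enpp3 and Sis, against 12.4%, and in Sis matches on both strands shared bases. The Enpp3 match, at -209 to -204, lies outside its printed run, which therefore has no capitals. Neither the Cubn window nor those of Anpep and Mme held any of the 5 motifs. A match is a description of the letters and not of a bound site.

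The values are MAS5 signals, given here as log2(signal + 16), and a level is compared only within a probe set. Median signal was 101 to 158 on the sorted arrays and 62.7 on whole intestine. Across genes, r between replicate arrays was 0.942 to 0.985, although genes are no independent replicates. Bhlha15 ranged from 7.83 to 9.41 in CD24lo and from 10.29 to 12.21 in CD24hi arrays, and Cd24a from 12.95 to 13.55 and from 13.83 to 14.73, so neither overlapped. Lgr5, the target of the ablation, read lower after it but was not past the threshold in either fraction. The change was -1.42 ± 0.56 in CD24lo (adjusted p = 0.585, limma) and -1.30 ± 0.56 in CD24hi (0.456). Hes1, a Notch target, was not past it with NICD (0.864 and 0.128). In doxorubicin CD24lo cells Bhlha15 was lower than in untreated cells (-1.19 ± 0.26, adjusted p = 0.00829, limma). Lgr5 was lower there too (-3.11 ± 0.56, 0.00304) and in irradiated CD24lo cells (-2.355 ± 0.56, 0.0268). Cd24a did not pass in either of these groups (0.862 and 0.278). The part of these shifts in the members' changes was not tested. All 5 epithelial markers lay above the array median on all 20 sorted arrays, and none of 5 stromal markers did on any. On 1 array, NICD CD24hi replicate 2, a spike-in control read 75343 against 22819 to 48833 on the other sorted arrays.

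In untreated mice, 7 of the 9 members were lower in CD24hi than in CD24lo cells, with a median difference of -3.08 over all 9 against 0.05 over all genes tested. Called lower here means an adjusted p below 0.05 in limma's moderated test after Benjamini-Hochberg adjustment over 11854 genes, and 6.87% of those genes were called lower. For all 9 genes both CD24hi arrays lay below both CD24lo arrays, including Mme and Dpp4, which were not called. The share of all genes that parted this way was not counted, so this is a description only. In sorted populations, fewer cells of a type and less RNA per cell cannot be told apart.

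Among the disaccharidases, Lct encodes lactase, which splits milk sugar. Its level was 11.33 and 11.53 on the untreated CD24lo arrays and 8.03 and 7.82 on the CD24hi arrays. The arrays of each fraction lay close together, and the difference was -3.51 ± 0.48 (SE; adjusted p = 0.000137), or 11.4-fold. Treh encodes trehalase, which splits the fungal and insect sugar trehalose. It read 9.97 and 9.40 in CD24lo against 7.26 and 5.95 in CD24hi, a difference of -3.08 ± 0.66 (adjusted p = 0.0047). CD24hi replicate 2 was the lower of its pair, and without it the Treh difference was -2.43 with an adjusted p of 0.0707.

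Alpi encodes intestinal alkaline phosphatase, a classic marker of the mature enterocyte that also removes phosphate from bacterial lipopolysaccharide. Its level was 13.09 and 11.79 in untreated CD24lo and 9.85 and 8.01 in CD24hi cells. The pairs were wide but did not overlap, and the difference was -3.50 ± 0.75 (adjusted p = 0.00449). It was not past the threshold without CD24lo replicate 1 (adjusted p = 0.0657) or without CD24hi replicate 2 (0.078).

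Of the peptidases, Enpep, the aminopeptidase that trims acidic residues, fell most. It read 12.61 and 11.71 in CD24lo and 9.61 and 8.46 in CD24hi, a difference of -3.13 ± 0.54 (adjusted p = 0.001). Anpep encodes aminopeptidase N, which removes neutral residues from the ends of peptides. It read 12.43 and 12.29 against 11.14 and 11.34, a smaller but called difference of -1.12 ± 0.34 (adjusted p = 0.0382) that was lost without any 1 of the 4 arrays (adjusted p = 0.0912 to 0.184), without the filter (0.0542) and without a variance trend (0.0642). Mme encodes neprilysin, which cuts inside peptides. It read 11.06 and 9.45 against 9.34 and 7.20, and its difference of -1.98 ± 0.79 did not pass (adjusted p = 0.112), though it did without CD24hi replicate 1 (0.0456). Dpp4, which removes dipeptides from peptide ends and inactivates incretin hormones, read 11.31 and 10.94 against 10.63 and 10.25 and did not pass (-0.69 ± 0.29, adjusted p = 0.13).

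Enpp3, a membrane phosphodiesterase that cleaves nucleotides, had the smallest adjusted p of the members. It read 12.19 and 12.35 in untreated CD24lo and 8.34 and 8.26 in CD24hi cells, a 15.8-fold difference (-3.98 ± 0.23, adjusted p = 2.79e-08). Cubn encodes cubilin, the receptor that takes up the intrinsic factor and vitamin B12 complex in the ileum. It was dim, at 6.16 and 7.09 in CD24lo and 5.59 and 4.56 in CD24hi. It lay below the array median on 14 of the 20 sorted arrays, every untreated array among them. Its difference was called (-1.55 ± 0.42, adjusted p = 0.0204) and was lost without CD24lo replicate 2 (0.183) or CD24hi replicate 2 (0.212), with 64 added in place of 16 (-0.84, 0.0553) and with the compared arrays alone (0.144). Taking the members as a count, CD24hi replicate 2 mattered most: without it 3 of 9 were called lower.

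**Figure D1:**
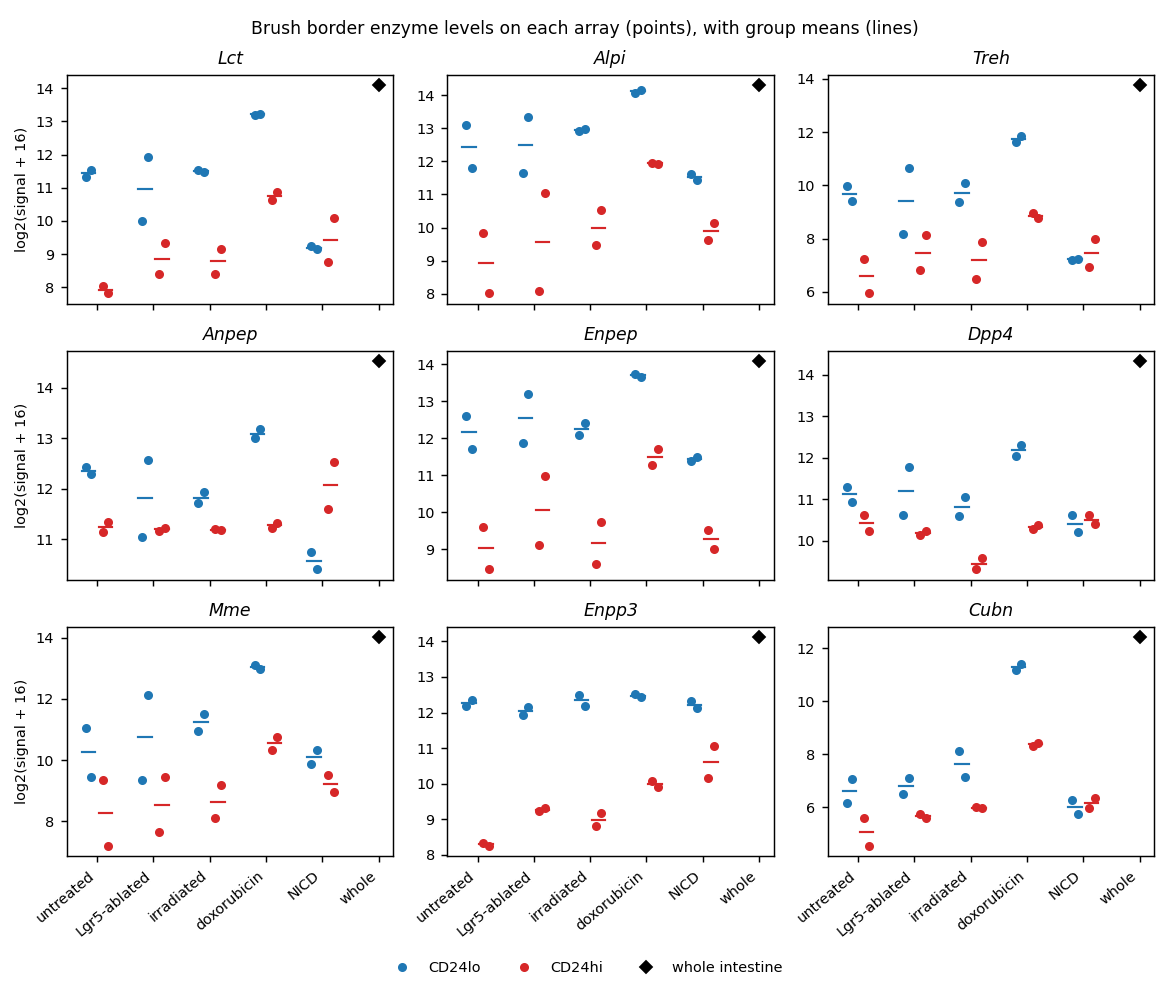
Each panel plots 1 gene, with the condition on the horizontal axis and log2(signal + 16) on the vertical axis, whose range differs between panels; points are arrays, short lines are group means, and the diamond is the whole intestine array. The doxorubicin CD24lo arrays (blue) lie above all other sorted arrays for 8 of the 9 genes, Enpp3 being the exception. The share of all genes for which this holds was not counted.

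Members were called lower in CD24hi cells in the treated conditions too, with the fewest calls with NICD. After Lgr5 ablation 5 members were called lower in CD24hi (2.83% of all genes), after irradiation 8 (8.23%), and after doxorubicin 9 (10.9%), with member medians of -2.11, -2.59 and -2.47. With NICD 2 were called lower (10.5%), 1 was called higher (as were 1615 of 11854 genes), and the median was 0.10. Averaged over the 5 conditions, all 9 were called lower (19.2% of genes), from -0.54 for Anpep to -2.84 for Enpp3, and all 9 stayed called without any 1 array.

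Enpp3 was the member whose 10 CD24lo and 10 CD24hi arrays did not overlap over all conditions, at 11.93 to 12.52 (median 12.26) and 8.26 to 11.06 (median 9.27). Its average difference was -2.84 ± 0.10 (adjusted p = 5.76e-12). For Lct, the CD24lo arrays ran from 9.15 to 13.23 (median 11.51) and the CD24hi arrays from 7.82 to 10.86 (median 8.97). These overlapped, and the average difference was -2.11 ± 0.22 (adjusted p = 6.32e-07). Alpi ran from 11.44 to 14.17 (median 12.95) and from 8.01 to 11.96 (median 10.00), with an average difference of -2.64 ± 0.33 (adjusted p = 7e-06). Enpep differed by -2.62 ± 0.24, Treh by -2.04 ± 0.30, Mme by -2.03 ± 0.35 and Cubn by -1.41 ± 0.19. The average differences of Dpp4 (-0.97 ± 0.13) and Anpep (-0.54 ± 0.15) were the smallest in size, and their CD24lo and CD24hi arrays overlapped.

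After Lgr5 ablation, the called members were Alpi, Dpp4, Enpep, Enpp3 and Lct. The CD24lo arrays of this condition stood apart from each other: Lct read 10.00 on replicate 1 and 11.93 on replicate 2, and Mme 9.36 and 12.13. Without CD24lo replicate 1, 8 members were called, without CD24lo replicate 2 or without CD24hi replicate 1 just 1 was, and Enpp3 was called in every case. The enterocyte markers split the same way, with a mean level of 11.74 on CD24lo replicate 1 and 13.07 on replicate 2, and their part in the result was not tested. With the compared arrays alone Enpp3 was the 1 member called, and Dpp4 also lost the call with no filter, the mean of its probe sets or no variance trend (0.0578 to 0.111) and Alpi with robust moderation (0.0786). After irradiation, Anpep alone did not pass (-0.63 ± 0.34, adjusted p = 0.253), and Mme was lost with no variance trend (0.0598) or robust moderation (0.0921). After doxorubicin, Alpi and Mme lost the call without any 1 of the 4 arrays (adjusted p = 0.12 to 0.144 and 0.0792 to 0.133), as did Enpep without CD24hi replicate 1 (0.0615). Alpi also lost it with quantile normalization, no filter, no variance trend or robust moderation (0.0547 to 0.0958), and Mme with robust moderation (0.0707). The irradiated count was 5 without CD24lo replicate 1, 4 without CD24lo replicate 2 and 3 without CD24hi replicate 1.

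**Figure D2:**
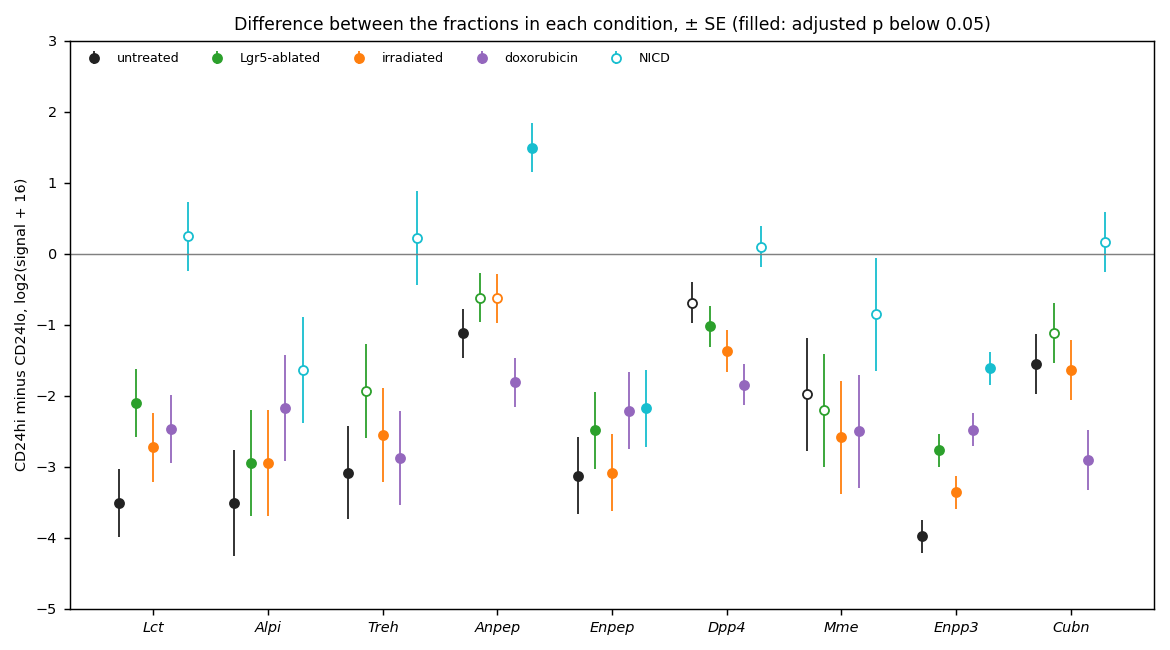
The vertical axis is the CD24hi minus CD24lo difference in log2(signal + 16) for each gene on the horizontal axis, coloured by condition, with bars of 1 SE; filled points have an adjusted p below 0.05. With NICD, the differences of Lct, Treh, Dpp4 and Cubn lie between 0.10 and 0.25 and that of Anpep at 1.49, while those of Alpi, Enpep, Mme and Enpp3 lie below 0.

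After doxorubicin, group means in CD24lo cells were the highest of the series' sorted groups for all 9 members, on the probe set used for each. The share of all genes highest in that group was not counted. Another kept Enpp3 probe set had its highest mean in NICD CD24lo cells, at 10.57 against 10.39 in doxorubicin CD24lo cells. With doxorubicin, 5 of the 9 rose against untreated cells in CD24lo cells, as did 648 of 11854 genes (14.7% changed in either direction). The member median was 1.68 against -0.06 over all genes. In CD24hi cells 4 rose, as did 95 of 11854 genes (1.2% changed in either direction), with a member median of 2.27. Cubn and Lct were called in both fractions. The comparisons of all treatments within a fraction share the same 2 untreated arrays.

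Cubn showed the largest change. It read 11.18 and 11.39 on the doxorubicin CD24lo arrays against 6.16 and 7.09 in untreated cells, and 8.33 and 8.43 on the CD24hi arrays against 5.59 and 4.56. The treated arrays lay above every other array of their fraction. On the log2(signal + 16) scale the change was 4.66 ± 0.42 in CD24lo (adjusted p = 2.42e-05) and 3.30 ± 0.42 in CD24hi (adjusted p = 0.000689), and both were called without any 1 array. With 64 and with 1 added in place of 16, it was 4.10 and 4.91 in CD24lo and 2.20 and 4.23 in CD24hi, called each time. The Cubn probe set used here is of a design whose probes may be shared with other transcripts. The other Cubn probe set is not of that design, and it changed by 4.40 ± 0.45 and 3.73 ± 0.45.

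Lct read 13.20 and 13.23 in doxorubicin CD24lo and 10.63 and 10.86 in CD24hi cells. These changes were 1.78 ± 0.48 (adjusted p = 0.0223) and 2.82 ± 0.48 (adjusted p = 0.00669). The CD24lo call was lost without any 1 of its 4 arrays (adjusted p = 0.0796 to 0.111), and the CD24hi call without untreated replicate 2, doxorubicin replicate 1 or doxorubicin replicate 2 (0.0699 to 0.116). Treh, at 11.64 and 11.84 in CD24lo, rose by 2.05 ± 0.66 at an adjusted p of 0.0469, and lost the call without any 1 array (0.0725 to 0.234). It also lost it with 1 added in place of 16, quantile normalization, no filter, no variance trend or robust moderation (0.0526 to 0.0724).

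Mme read 13.12 and 12.97 in doxorubicin CD24lo cells and rose by 2.80 ± 0.79 (adjusted p = 0.0274). Dpp4 read 12.05 and 12.32 there and rose by 1.06 ± 0.29 (adjusted p = 0.0238), while its CD24hi arrays, at 10.29 and 10.39, changed by -0.10 ± 0.29. Both CD24lo calls were lost without untreated replicate 2 or either doxorubicin array (adjusted p = 0.103 to 0.236 for Mme and 0.0806 to 0.172 for Dpp4), and that of Mme with robust moderation (0.0691). Enpep was called in CD24hi cells alone, at 11.27 and 11.71 (2.46 ± 0.54, adjusted p = 0.0341), and this was lost without untreated replicate 2 or either treated array (0.172 to 0.416), with no variance trend (0.0745) and with robust moderation (0.0869). Its CD24lo change was 1.54 ± 0.54 (adjusted p = 0.0652).

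Averaged over its kept probe sets, Enpp3 rose in doxorubicin CD24lo cells (0.76, adjusted p = 0.0362, limma). On the brightest one, used here, it did not pass (0.20 ± 0.23, adjusted p = 0.588). There it read 12.52 and 12.43 against 12.19 and 12.35 in untreated cells. In CD24hi cells it read 10.08 and 9.91 against 8.34 and 8.26 and rose by 1.70 ± 0.23 (adjusted p = 0.00106), a call that held without any 1 array. Alpi was called in neither fraction, although it read 14.06 and 14.17 in CD24lo (1.68 ± 0.75, adjusted p = 0.135) and 11.96 and 11.93 in CD24hi cells (3.01 ± 0.75, adjusted p = 0.0639). With the compared arrays alone it was called in both (adjusted p = 0.0191 and 0.0119, limma). Anpep read 13.00 and 13.18 in CD24lo (0.73 ± 0.34, adjusted p = 0.158) and changed by 0.04 in CD24hi cells.

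No member's doxorubicin effect was called different between the fractions (0.0337% of genes were). At an unadjusted p below 0.05 there were 3, Enpp3, Dpp4 and Cubn, against 10.6% of all genes, with Enpp3 at 1.50 ± 0.33 (adjusted p = 0.11). The direction for Enpp3 depended on the probe set. The one that failed the filter gave -1.54 ± 0.69 (adjusted p = 0.542, limma without the filter). The dimmest kept one went from 7.02 to 8.36 in CD24lo and from 4.96 to 5.88 in CD24hi cells. In CD24lo cells the count of members that rose was 3 without untreated replicate 1 and 1 without any of the other 3 arrays, when Cubn alone was called. In CD24hi cells it was 2, Enpp3 and Cubn, without untreated replicate 2 or either treated array. With the spread estimated from the compared arrays alone, the CD24lo count was 8, and with robust moderation it was 3.

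**Figure D3:**
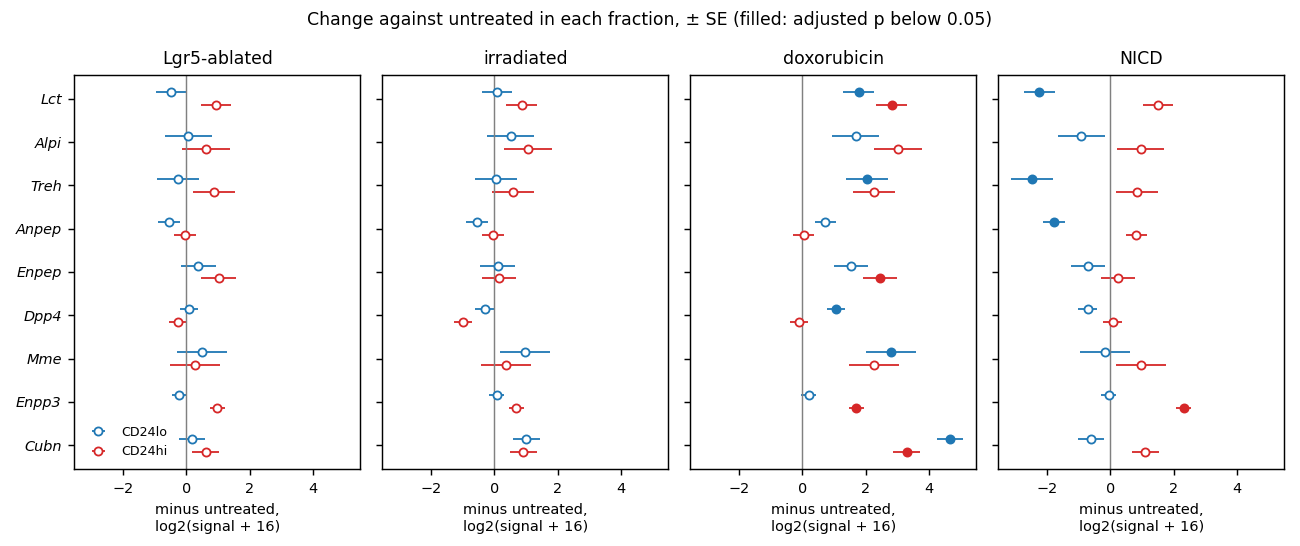
Each panel is 1 treatment, with genes on the vertical axis and the change from untreated cells in log2(signal + 16) on the horizontal axis, in CD24lo (blue) and CD24hi (red) cells, with bars of 1 SE; filled points have an adjusted p below 0.05. Cubn after doxorubicin lies farthest right, at 4.66 and 3.30, and with NICD all CD24lo points lie to the left of 0, those of Lct, Treh and Anpep being called, while all CD24hi points lie to the right, that of Enpp3 being called.

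With NICD, Lct, Treh and Anpep fell in CD24lo cells, 3 of the 9 members (median -0.71). Of all 11854 genes, 915 fell there, and 14.4% changed in either direction. In CD24hi cells 1 other member, Enpp3, rose (member median 0.96), as did 557 genes (6.56% changed in either direction). No member was called in both fractions. The effects of Lct, Anpep and Enpp3 were called different between the fractions (2.65% of genes were), all 3 being higher in CD24hi relative to CD24lo cells. At an unadjusted p below 0.05 there were 5 of 9, against 26.4% of all genes.

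Lct read 9.24 and 9.15 with NICD in CD24lo cells, against 11.33 and 11.53 untreated, and fell by 2.24 on the log2 scale (SE 0.48, adjusted p = 0.0119). In CD24hi cells it read 8.78 and 10.10 against 8.03 and 7.82 (1.51 ± 0.48, adjusted p = 0.0698). The treated fractions overlapped. The difference between these effects was 3.75 ± 0.68 (adjusted p = 0.0231). It was not past the threshold without untreated CD24lo replicate 2 (0.0573), either untreated CD24hi array (0.0618 and 0.0664), NICD CD24lo replicate 2 (0.148) or NICD CD24hi replicate 2 (0.15).

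Anpep was the member called higher in CD24hi cells with NICD, as were 1615 of 11854 genes. It read 10.74 and 10.40 in NICD CD24lo cells, its lowest levels on any array, and 11.60 and 12.53 in NICD CD24hi cells. CD24hi thus exceeded CD24lo by 1.49 ± 0.34 (adjusted p = 0.00663), against -1.12 in untreated cells. The fall in CD24lo was -1.79 ± 0.34 (adjusted p = 0.00959), and the CD24hi change was 0.83 ± 0.34 (adjusted p = 0.155). The difference between the effects was 2.61 ± 0.49 (adjusted p = 0.0272), and it was lost without any 1 array other than the first replicates of the NICD groups (adjusted p = 0.0551 to 0.179) and without a variance trend (0.0552). The higher level in CD24hi was not past the threshold without NICD CD24lo replicate 2 (0.0862) or NICD CD24hi replicate 2 (0.124).

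Enpp3 read 10.16 and 11.06 in NICD CD24hi cells against 8.34 and 8.26 untreated, a rise of 2.31 ± 0.23 (adjusted p = 7.02e-05) that held without any 1 array. Its CD24lo arrays, at 12.33 and 12.12, changed by -0.05 ± 0.23, so the fractions still did not overlap (-1.61 ± 0.23, adjusted p = 0.000246). The difference between its effects was 2.36 ± 0.33 (adjusted p = 0.00466). This last value depended on the probe set: the others gave 1.21, 0.78 and 0.55, none of them called, and the mean of the probe sets gave an adjusted p of 0.0548. It was also not past the threshold without NICD CD24lo replicate 2 (0.0575).

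Treh read 7.20 and 7.25 in NICD CD24lo cells and fell by 2.46 on the log2 scale (SE 0.66, adjusted p = 0.0253), a call lost without any 1 array (0.0625 to 0.245). In CD24hi cells it read 6.93 and 7.97, and the fractions overlapped. Enpep kept its order, at 11.40 and 11.49 in CD24lo and 9.53 and 9.01 in CD24hi cells (-2.17 ± 0.54, adjusted p = 0.00995), a call lost without NICD CD24lo replicate 2 (0.0858) or NICD CD24hi replicate 2 (0.107). Alpi read 11.62 and 11.44 against 9.63 and 10.14 (-1.64 ± 0.75, adjusted p = 0.118), and Mme 9.86 and 10.32 against 9.52 and 8.95 (-0.86 ± 0.79). The Dpp4 fractions overlapped, at 10.61 and 10.21 against 10.62 and 10.40, as did those of Cubn.

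Counts with NICD moved with single arrays. The CD24lo count was 1 without untreated replicate 2 and 0 without NICD replicate 2. The CD24hi count was 3 without NICD replicate 1. The count of effects that differed between fractions was 0 without NICD CD24lo replicate 2. It was 1 without NICD CD24hi replicate 2, untreated CD24lo replicate 2 or either untreated CD24hi array. The count of members lower in CD24hi was 1 without replicate 2 of either NICD fraction, when Enpp3 alone was called.

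Lgr5 ablation and irradiation left no member past the threshold within a fraction. After ablation 0 of 9 were called in CD24lo (0.236% of genes changed; 0 members and 7.44% of genes at an unadjusted p below 0.05 in limma) and 0 in CD24hi (0.852%; 1 member and 9.57% unadjusted). That member was Enpp3, at 9.23 and 9.31 in CD24hi cells against 8.34 and 8.26 (0.98 ± 0.23, adjusted p = 0.0574). After irradiation 0 were called in CD24lo (4.02%; 1 member and 21% of genes unadjusted) and 0 in CD24hi (4.44%; 3 members and 15.9% unadjusted). Dpp4 read 9.31 and 9.59 in irradiated CD24hi cells, its lowest levels on any sorted array (-0.98 ± 0.29, adjusted p = 0.0681; 0.0464 with the compared arrays alone). No effect differed between fractions for either treatment (0.0169% and 0.00844% of genes), with 1 member for ablation and 0 for irradiation at an unadjusted p below 0.05, against 4.46% and 3.61% of genes.

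The 95% intervals were wide for most members. The Alpi change after ablation had an interval of -1.51 to 1.65 in CD24lo cells, and the Lct change after irradiation one of -0.94 to 1.10. Enpp3 was measured most closely, at -0.72 to 0.25 in ablated and -0.41 to 0.57 in irradiated CD24lo cells. A value that did not pass is therefore not shown to be equal.

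In order of group means on the probe set used for each gene, doxorubicin CD24lo was highest for all 9 members and untreated CD24hi lowest for 7. Shares of all genes with these orders were not counted, so the counts only describe the members. Anpep was lowest in NICD CD24lo and Dpp4 in irradiated CD24hi cells. For Lct the order ran from doxorubicin CD24lo through irradiated, untreated and ablated CD24lo to doxorubicin CD24hi, then NICD CD24hi, NICD CD24lo and ablated, irradiated and untreated CD24hi. The irradiated, untreated and ablated CD24lo groups overlapped, as did the NICD, ablated and irradiated groups that followed doxorubicin CD24hi. On the probe set used for each gene, whole intestine exceeded every sorted array for all 9 members. This did not hold for every probe set: another of Dpp4 read 8.82 in whole intestine against up to 9.50 on the sorted arrays, and another of Enpp3 read 7.78 against up to 8.59. The margin over the highest sorted array was 0.14 for Alpi (14.31), 0.35 for Enpep (14.08) and 0.87 for Lct (14.10). It reached 1.93 for Treh (13.77) and 2.01 for Dpp4 (14.33). This is 1 array, so it has no error and no test. Its median signal was 62.7, against 101 to 158 on the sorted arrays. The share of all genes for which it exceeded every sorted array was not counted.

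Genes with several probe sets mostly gave the same picture. All 4 Dpp4 probe sets were lower in CD24hi on average over the conditions (-0.63 to -1.10, all called) and rose with doxorubicin in CD24lo cells (1.06 to 1.64, all called). The second Mme probe set was called lower in untreated CD24hi cells (-2.04 ± 0.65, adjusted p = 0.0478), where the brighter one was not. For Enpp3, 4 of 5 probe sets were kept, and their average differences ran from -1.95 to -3.25. The dimmest of the 4 rose with doxorubicin in CD24lo cells (1.34 ± 0.41, adjusted p = 0.0435), unlike the brightest. The fifth was below the array median on all 20 sorted arrays. Tested without the filter, it rose with doxorubicin in CD24lo cells (1.66 ± 0.49, adjusted p = 0.0473, limma).

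Genes of the same surface were read from lists chosen with earlier results of these data known. Of 16 other brush border hydrolases 11 were tested: averaged over conditions, 9 were lower in CD24hi and 1 was higher. Mep1b, a meprin subunit, differed by -2.41 ± 0.21 and the peptidase Naaladl1 by -2.10 ± 0.12, while the phospholipase Plb1 was higher by 2.52 ± 0.30. With doxorubicin 6 of the 11 rose in CD24lo cells, led by the alkaline phosphatase Akp3 (3.32 ± 0.67), the angiotensin-converting enzyme Ace (2.49 ± 0.46) and the ceramidase Asah2 (1.93 ± 0.54). With NICD 3 fell in CD24lo cells, Dpep1, Mep1b and Naaladl1 (-1.84, -1.84 and -1.70), and 2 rose in CD24hi cells, the ecto-nucleotidase Nt5e (3.90 ± 0.67) and Xpnpep2 (1.53 ± 0.25). The median NICD difference between fractions was 2.00 in this list, 1.87 in the 9 members and 0.03 over all genes.

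Of a list of 4 genes tied to cubilin or to vitamin B12, 2 were tested. Amn, which anchors cubilin in the membrane, and Tcn2, which carries vitamin B12 in blood, were lower in CD24hi on average (-0.59 ± 0.17 and -0.64 ± 0.13). With doxorubicin in CD24lo cells Tcn2 rose by 0.93 ± 0.29, against 4.66 for Cubn, and Amn did not pass (0.69 ± 0.39, adjusted p = 0.24, limma). Of 17 scaffold genes of the microvillus 16 were tested, and 12 were lower and 1 higher in CD24hi on average. Their median was -0.37, against -2.04 for the members. Pls1, an actin bundler, differed by -1.26 ± 0.10, Slc9a3r1 by -0.94 ± 0.12 and the motor Myo1a by -0.87 ± 0.08. Espn, another bundler, was the higher one (0.87). With doxorubicin 6 of the 16 rose in CD24lo cells, and with NICD 5 fell.

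Of 11 regulators of enterocyte genes 9 were tested, and 4 were lower in CD24hi on average: Isx (-1.57 ± 0.10), Hnf4g (-1.39 ± 0.18), Gata4 (-0.42 ± 0.10) and Cdx2 (-0.28). None rose with doxorubicin, and Cdx1 fell in CD24lo cells (-0.82 ± 0.20). With NICD, Gata4 and Cdx1 fell in CD24lo cells (-0.76 ± 0.23 and -0.64 ± 0.20). The NICD effect on Hnf4g differed between fractions by 2.31 ± 0.58 (adjusted p = 0.0479), in the same direction as Lct, Anpep and Enpp3.

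Enterocyte markers that are not brush border enzymes moved beside the members. Of 10, 9 were tested, and all 9 were lower in CD24hi in untreated and irradiated cells and on average; after doxorubicin 8 were, after ablation 6 and with NICD 0. Their summed signal was 56180 to 66090 in untreated CD24lo, 15560 to 22550 in untreated CD24hi, 42210 to 83430 in ablated CD24lo and 16820 to 32040 in ablated CD24hi. It was 69040 to 74580 and 16660 to 28690 in the irradiated fractions, 115400 to 134600 and 47580 to 47810 in the doxorubicin fractions, and 34080 to 35480 and 28310 to 40170 in the NICD fractions. Of the 9, 8 lay above the array median on all 20 sorted arrays. With doxorubicin 4 rose in CD24lo and 2 in CD24hi cells (medians 1.34 and 1.82), and with NICD 2 fell in CD24lo and 4 rose in CD24hi cells (medians -1.11 and 1.10). Their part in the result was not tested.

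**Figure D4:**
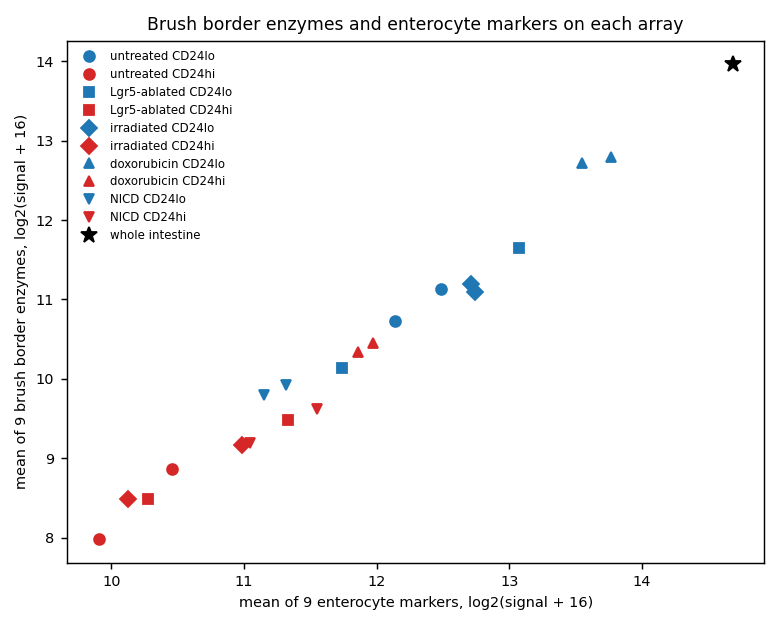
Each point is 1 array, with the mean of 9 enterocyte markers on the horizontal axis and the mean of the 9 members on the vertical axis, both in log2(signal + 16). Arrays run from untreated CD24hi replicate 2 (9.90 and 7.98) to doxorubicin CD24lo replicate 2 (13.77 and 12.80), with whole intestine beyond them (14.68 and 13.96).

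T cell markers moved with some of these results. Of 6 markers 5 were tested. In CD24lo cells 4 rose with doxorubicin (median 3.05) and 2 with NICD (median 1.91), against 648 and 794 of 11854 genes. None was called in the CD24hi fraction. The summed signal of the 6 was 2624 to 2672 in doxorubicin CD24lo, 1252 to 1564 in doxorubicin CD24hi and 1177 to 1221 in NICD CD24lo. In the other 7 sorted groups it ran from 172 in untreated CD24hi to 778 in ablated CD24lo, and it was 13970 in whole intestine. No marker was at 0, and Cd3d lay below the array median on all 20 sorted arrays. Their part in the result was not tested, for Dpp4 in particular, which T cells also make. Cd68 and Lyz2, of 5 myeloid markers, lay above the array median on all 20 sorted arrays. Itgam did on 2, Csf1r on 1 and Adgre1 on 0. Of B and plasma cell markers, Jchain did on 20, Cd79a on 3, Ms4a1 on 2 and Cd79b on 0. The 5 myeloid markers summed to 5933 to 7503 in untreated, 2096 to 3265 in doxorubicin and 7376 to 10520 in NICD CD24lo cells. The CD24hi sums were 5923 to 7791, 4475 to 4950 and 8019 to 9821. The part of these markers was not tested.

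Markers of other epithelial cells also differed between the fractions. Averaged over conditions, 4 of 4 tuft (median 3.24), 3 of 4 tested Paneth (0.61) and 3 of 4 enteroendocrine markers (0.40) were higher in CD24hi. Lower were 2 of 6 goblet cell markers (-0.22) and 2 of 5 general epithelial markers (-0.10). Of all 11854 genes, 3249 were called higher and 2280 lower on that average. Lgr5, the stem cell marker, was higher in CD24hi by 3.15 ± 0.25 (adjusted p = 4.05e-08). With NICD in CD24hi cells 4 of 4 tuft (median 2.94) and 4 of 4 enteroendocrine markers (2.53) rose, as did 557 of 11854 genes. In NICD CD24lo cells 3 of 6 goblet and 1 of 5 epithelial markers fell (medians -0.56 and -0.49), and 1 of 4 enteroendocrine markers rose (1.13). Of all 11854 genes, 915 fell and 794 rose there. The summed tuft signal was 111.2 to 182.2 in untreated CD24lo, 936.5 to 1345 in untreated CD24hi, 176.1 to 181.2 in NICD CD24lo and 7994 to 8979 in NICD CD24hi cells. In the same order, the enteroendocrine sum was 6892 to 8747, 8249 to 8827, 15850 to 16100 and 36120 to 59200, the goblet sum 110400 to 141100, 61440 to 79090, 81480 to 86820 and 68310 to 117100, and the Paneth sum 62320 to 75310, 70770 to 95250, 46860 to 48470 and 75810 to 174300. With doxorubicin in CD24lo cells 2 of 4 Paneth and 1 of 4 enteroendocrine markers fell, as did 1099 of 11854 genes. In doxorubicin CD24hi cells 2 of 6 goblet markers rose (95 genes did) and 1 of 4 enteroendocrine markers fell (47 genes did). No tuft marker lay above the array median on both arrays of a CD24lo group, and no tuft, goblet, Paneth or enteroendocrine marker with a probe set was at 0. Their part in the results was not tested.

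The members' profiles were set against each other over the 10 group means, which share their arrays and scaling. Pearson's r over the 36 pairs ranged from 0.491 (Anpep and Enpp3) to 0.989 (Lct and Treh), with a median of 0.824 and 23 pairs above 0.8. Within the 5 CD24hi groups, Anpep had correlations of -0.23 to 0.76 with the other members and Dpp4 of -0.003 to 0.48. The genes most like each member over these 10 means, among those outside the list, were Creb3l3 for Lct (r = 0.979), Gnpda1 for Treh (0.986), 2010106E10Rik for Alpi (0.996), Gda for Enpep (0.988) and Dqx1 for Anpep (0.979). They were Aldh1a7 for Mme (0.980), Peak1 for Dpp4 (0.976), Ptgdr for Enpp3 (0.982) and Nek3 for Cubn (0.965). Apoa4, an enterocyte marker, came next after Creb3l3 for Lct (0.975).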

How the data were processed

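Signal intensity was deposited for 45101 probe sets on 21 arrays, with MAS5 named as the authors' tool in the submitters' processing notes; its version is not given in the sources used here. The intensity values deposited were linear, and their mean without the outer 2 percent on each side was 500 on every array. MAS5 detection calls were not used here. Probe sets with 1 gene symbol in the platform annotation were used (34958; 932 had several and 9211 none). Signals were taken as log2(signal + 16), probe sets above the array median in at least 2 of 20 sorted arrays were kept, and a gene was read from its brightest kept probe set by mean. limma 3.58.1 in R 4.3.3 fitted 10 group means with 10 residual degrees of freedom, a variance trend and two-sided tests, adjusted by Benjamini-Hochberg at 0.05 over 11854 genes in each of 18 comparisons. Tests were checked on data simulated with noise independent between genes. That check does not cover arrays that deviate over many genes together. For arrays, their number limits the precision.

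Whole intestine, a single array, entered no test. The members and lists were chosen with earlier results of these data known. All members are named whatever their result, with up to 3 called genes per list with the largest change, and the 3 genes most like each member; of these the closest are printed. Values from each of the marker lists fixed are printed. Alternatives covered the added value, scaling, filter, probe set rule, variance model, the replicate block, the arrays fitted and each array left out. Promoter sequences came from RefSeq's table for GRCm38.p6. No set test was run.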

Additional observations from a re-analysis of the deposited data

Results flagged for a closer look

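The NICD effects of 3 members differed between the fractions by the test of that difference in limma: 3.75 for Lct, 2.61 for Anpep and 2.36 for Enpp3 (log2; CD24hi effect minus CD24lo effect).

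On the probe set used for each gene, whole intestine, which no comparison uses, read above every untreated sorted array. Its levels in log2(signal + 16) were 14.10 for Lct, 14.31 for Alpi, 13.77 for Treh, 14.53 for Anpep, 14.08 for Enpep, 14.33 for Dpp4, 14.01 for Mme, 14.11 for Enpp3 and 12.40 for Cubn. This was 1 array, and the difference was not tested. The share of all genes that read higher on it in the same way was not counted.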

How the results depend on the processing

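No member's called value changed sign under any alternative run. Of the members' values under settings other than leaving out an array, 1903 stayed on their side of the threshold, 29 lost the call and 12 gained it; with 1 array left out these were 845, 83 and 8, the lone array being assumed to vary like the other groups. With the compared arrays alone, counts of members called moved from 5 to 1 for CD24lo against CD24hi after Lgr5 ablation, from 0 to 1 for irradiated CD24hi, from 5 to 8 for doxorubicin CD24lo and from 0 to 1 for the doxorubicin effect between fractions. Robust moderation took doxorubicin CD24lo to 3, and the replicate block took NICD CD24hi from 1 to 2, with Lct at an adjusted p of 0.0386, and moved no other count by over 1.5 times. The numbers were not taken as pairs, since deviations of same-numbered arrays correlated at -0.41 to 0.385 (median -0.0233), over 0.1 in 11 of 45 pairs of groups. With each array left out in turn, counts ranged from 3 to 7 for CD24hi lower in untreated, 1 to 8 in ablated, 3 to 7 in irradiated and 1 to 2 in NICD cells, from 1 to 3 and 2 to 5 for doxorubicin in CD24lo and CD24hi, from 0 to 2 and 1 to 3 for NICD, and from 0 to 4 for the NICD effect between fractions. Fewer samples enter these fits; for the other moves the cause was not tested. With 2 arrays a group and without detection calls, dim genes such as Cubn and Treh are read least well.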
